A study of Homo sapiens with 6 samples.

Results

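Expression of 10 Notch pathway genes was followed in H69, a human cholangiocyte line kept growing by immortalisation. Cholangiocytes form the epithelium of the bile ducts. The set held 3 ligand genes (JAG1, JAG2 and DLL1), 3 receptor genes (NOTCH1, NOTCH2 and NOTCH3) and 4 genes of HES and HEY transcriptional repressors (HES1, HES4, HEY1 and HEY2). They were taken by gene name from a table of 64253 genes, and rows on alternate assembly sequences were left out. All 10 were found, and 9 had enough reads to be tested. Cells at passages 30 to 32 received recombinant human TGF-beta at 10 ng/ml or vehicle for 16 h, and RNA was sequenced from 3 libraries of each condition. The series asked which genes change when cholangiocytes meet this cytokine.

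Notch signalling passes between touching cells. A ligand of the Jagged or Delta-like family on one cell binds a Notch receptor on its neighbour, the receptor is cut by a metalloproteinase and then by gamma-secretase, and the freed intracellular part joins the DNA-binding protein RBPJ in the nucleus. The HES and HEY repressors are the classical genes switched on by that complex. In the liver, JAG1 and NOTCH2 are known for their part in bile duct formation, and mutations in either gene cause Alagille syndrome, in which bile ducts are scarce.

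The deposited counts summed to between 37205862 and 54160521 per library, and 1 CPM (count per 1e+06 reads, after TMM scaling) stood for 35.8 to 56.2 reads. The labels do not say that replicates were separate cultures, and p-values here reflect only library-to-library spread, which may be technical. Vehicle replicate 1 stood apart: the chi-square of its counts against each other vehicle library, divided by the degrees of freedom, was 24.1 and 26.6, while all other pairs within a condition gave 2.50 to 4.72. SMAD7, an inhibitory SMAD gene and a standard TGF-beta response gene, averaged 73.1 ± 3.09 CPM with TGF-beta and 13.1 ± 2.45 CPM in vehicle (mean ± SD, n = 3 each). Of 11 cholangiocyte markers, 9 averaged 1 CPM or more, while CFTR was at 0 in every library. Their sum was 5705 to 6215 CPM with TGF-beta and 4014 to 4374 CPM in vehicle; KRT7 and KRT8 were called higher (log2 0.95 and 0.51), and SOX9, CDH1 and EPCAM lower (-1.76, -0.70 and -0.48). The 6 hepatocyte markers summed to at most 0.816 CPM with TGF-beta and 1.079 CPM in vehicle. Of 6 fibroblast or stellate cell markers, 1 was called higher and 1 lower. Their sum was 136 to 147 CPM with TGF-beta and 67.7 to 80.3 CPM in vehicle, nearly all of it PDGFRB. LUM had 0 reads in each TGF-beta library and 3, 2 and 1 reads in the vehicle libraries, too few to be tested. Of 5 endothelial markers, 2 were called lower and their sum was 10.9 to 12.5 CPM with TGF-beta and 20.1 to 24.3 CPM in vehicle; CDH5 averaged 0.0596 CPM with TGF-beta and 0.0529 CPM in vehicle. Of 5 leukocyte markers, 1 was called lower and their sum was 11.4 to 13.1 CPM with TGF-beta and 15.5 to 15.7 CPM in vehicle. PTPRC had 0 reads in each TGF-beta library and 0, 4 and 7 reads in the vehicle libraries, also too few. The part of these marker differences in the results below was not tested.

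With TGF-beta, HES1, HEY1, NOTCH3 and JAG2 were called higher and NOTCH1 was called lower, while JAG1, DLL1, NOTCH2 and HES4 were not called. The threshold for a call was 0.05 on the Benjamini-Hochberg adjusted p of edgeR's quasi-likelihood F test, adjusted over 20992 genes. Of those genes, 19.7% were called higher and 20.4% lower, so that 40.1% were called in either direction, beside 5 of the 9 tested members. With library totals alone in place of TMM scaling, 2698 genes were called higher and 7281 lower, against 4145 and 4278 with TMM, and the median log2 fold change of all genes moved to -0.14, against -0.01 with TMM. All directions given here hold relative to TMM. The median log2 fold change of the 9 members was 0.01. The 5 called members were also those whose CPM ranges were fully apart between conditions, as were the ranges of 52.3% of all genes tested. In a bulk sample, fewer cells that express a gene and less RNA of it per cell cannot be told apart.

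**Figure D1:**
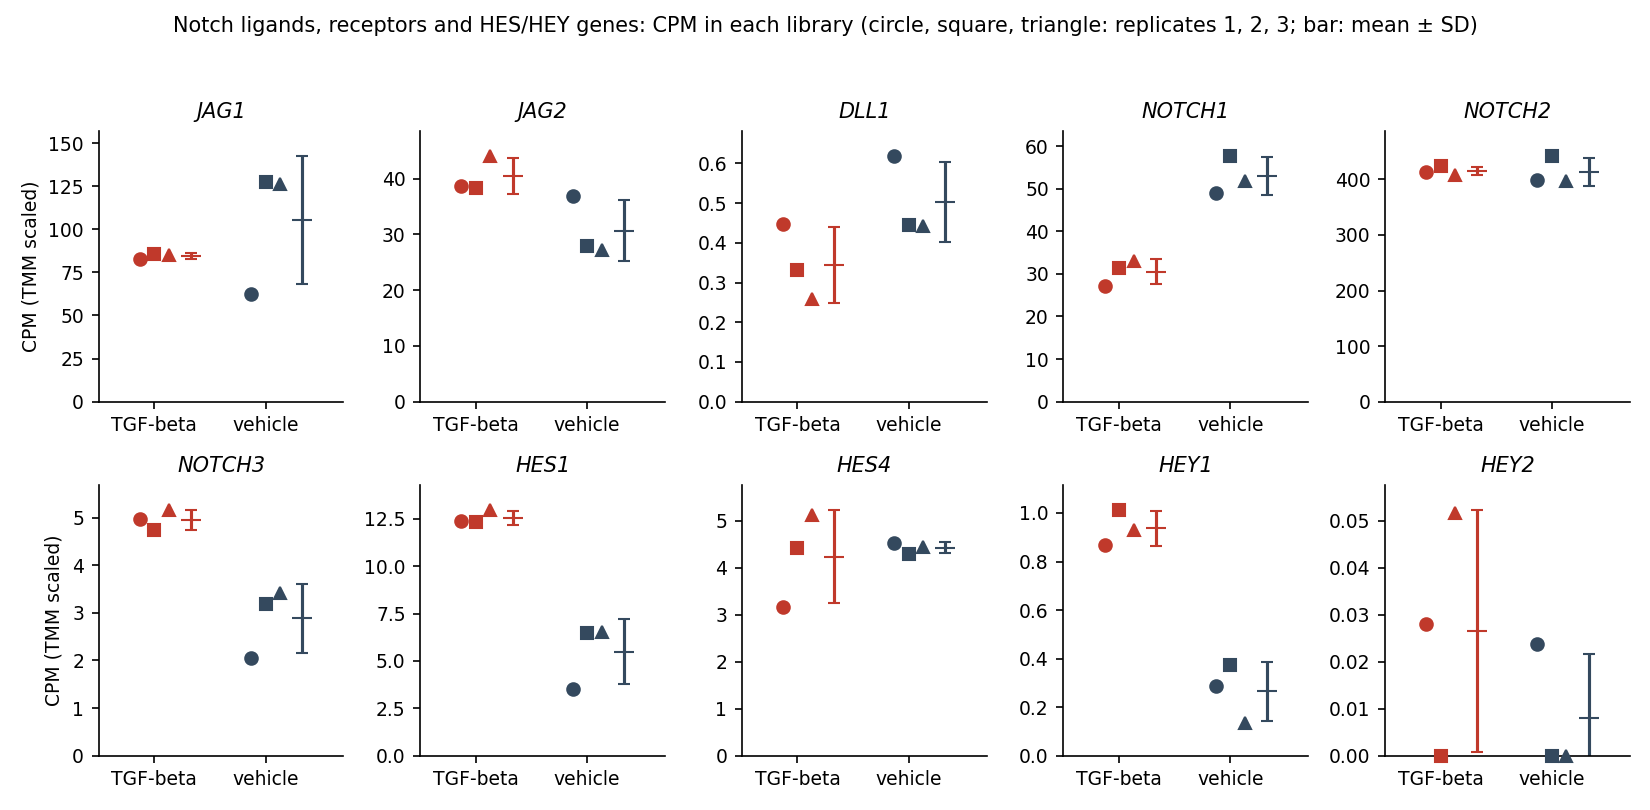
CPM after TMM scaling of each of the 10 genes in the 3 TGF-beta libraries (red) and the 3 vehicle libraries (dark blue), with the replicate number given by the symbol and the mean ± SD as a bar; each panel has its own axis from 0. HES1, NOTCH3, HEY1 and JAG2 lie higher in all TGF-beta libraries and NOTCH1 lies lower, while vehicle replicate 1 (circle) lies below the TGF-beta libraries for JAG1, at 62.5 CPM.

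Among the ligands, JAG1 was well expressed, JAG2 was near the middle of the tested protein-coding genes and DLL1 was scarce. Scaled to gene length, they ranked above 69.5%, 49.7% and 5.2% of those genes, in that order. JAG1 (ENSG00000101384, hg38 chromosome 20, 10637684 to 10674107) measured 82.6, 85.4 and 85.3 CPM in TGF-beta replicates 1, 2 and 3, against 62.5, 127 and 127 CPM in vehicle replicates 1, 2 and 3. The TGF-beta libraries were close together and lay between vehicle replicate 1 on one side and vehicle replicates 2 and 3 on the other. The log2 fold change was -0.32 (SE 0.31, edgeR quasi-likelihood adjusted p = 0.478). Without vehicle replicate 1, JAG1 passed the test as lower, with log2 -0.59 (SE 0.04, edgeR quasi-likelihood adjusted p = 4.22e-13), a fit in which the near-equal vehicle replicates 2 and 3 alone stood for vehicle. The call for JAG1 thus changed with 1 library.

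JAG2 (ENSG00000184916, chromosome 14, 105140981 to 105168824), the second Jagged ligand, measured 38.7, 38.4 and 44.1 CPM in the TGF-beta libraries, against 36.9, 28.0 and 27.2 CPM in the vehicle libraries. By CPM after TMM scaling, all TGF-beta libraries were above all vehicle libraries, with vehicle replicate 1 close below the lowest of them. By the deposited RPKM (reads scaled to gene length and library size) the ranges overlapped. There, vehicle replicate 1 was at 2.54, above TGF-beta replicates 1 and 2 at 2.51 and 2.49. JAG2 had a log2 fold change of 0.40 (SE 0.13, edgeR quasi-likelihood adjusted p = 0.0476). That call was lost without any 1 of the other libraries, with edgeR quasi-likelihood adjusted p-values of 0.0914, 0.0769 and 0.132 without TGF-beta replicate 1, 2 or 3, and of 0.117 and 0.0998 without vehicle replicate 2 or 3. It was also lost with library totals alone (log2 0.27, edgeR quasi-likelihood adjusted p = 0.132). Without vehicle replicate 1 the log2 fold change was 0.55. The non-coding transcript RP11-44N21.4 overlaps JAG2 over 16631 bases and held a mean of 208 reads per library against 1562 for JAG2. It was called higher as well, at 0.42 on the log2 scale (SE 0.12). The counting's strand setting was not given in the sources used here, so reads of the overlapping genes cannot be told apart.

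DLL1 (ENSG00000198719, chromosome 6, 170282206 to 170290473), a Delta-like ligand, had 16, 15 and 10 reads in the TGF-beta libraries and 26, 25 and 23 reads in the vehicle libraries. These were 0.447, 0.331 and 0.258 CPM with TGF-beta and 0.620, 0.444 and 0.443 CPM in vehicle, so the ranges overlapped slightly. The log2 fold change of -0.53 had an SE of 0.29 and was not called (edgeR quasi-likelihood adjusted p = 0.172). A change in DLL1 was thus neither called nor excluded.

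Among the receptors, NOTCH1 fell, NOTCH3 rose and NOTCH2, the most abundant of the 10 genes, stayed within the spread of the vehicle libraries. NOTCH1 (ENSG00000148400, chromosome 9, 136494444 to 136545862) measured 27.2, 31.5 and 32.9 CPM in the TGF-beta libraries, against 49.1, 57.8 and 51.9 CPM in the vehicle libraries. The ranges were far apart, and the means were 30.5 ± 3.005 CPM with TGF-beta and 52.9 ± 4.44 CPM in vehicle (SD, n = 3 each). NOTCH1 had a log2 fold change of -0.79 (SE 0.08, edgeR quasi-likelihood adjusted p = 5.96e-05), and it ran from -0.85 to -0.72 when 1 library was left out.

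NOTCH3 (ENSG00000074181, chromosome 19, 15159038 to 15200981) is known mainly from vascular smooth muscle and pericytes. It measured 4.98, 4.74 and 5.16 CPM in the TGF-beta libraries, against 2.05, 3.18 and 3.41 CPM in the vehicle libraries. All TGF-beta libraries were above all vehicle libraries, and vehicle replicate 1 was again the lowest. The log2 fold change was 0.77 (SE 0.16, edgeR quasi-likelihood adjusted p = 0.00412) and 0.59 without vehicle replicate 1, which was also called.

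NOTCH2 (ENSG00000134250, chromosome 1, 119911553 to 120069626) measured 413, 424 and 409 CPM in the TGF-beta libraries and 399.6, 443 and 397 CPM in the vehicle libraries. The TGF-beta values fell inside the vehicle range. Its log2 fold change was 0.0068 (SE 0.05), and the sign turned with library totals alone (-0.12, SE 0.05, edgeR quasi-likelihood adjusted p = 0.0653). Of the 2 rows named NOTCH2NL, partial copies of NOTCH2 with near-identical sequence, each had 78 to 163 reads per library, against at least 14775 for NOTCH2. The sources used here do not give how reads were split among these copies, so the NOTCH2 value is uncertain to that extent.

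**Figure D2:**
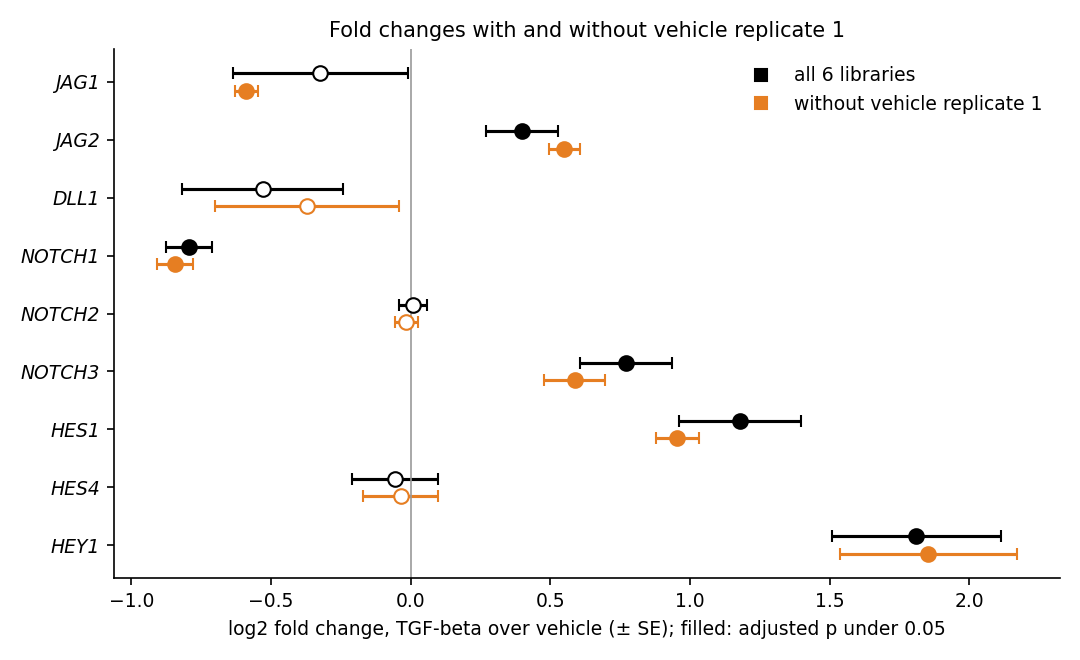
Log2 fold change of TGF-beta over vehicle with its SE for the 9 tested genes, from all 6 libraries (black) and without vehicle replicate 1 (orange); filled circles have an adjusted p under 0.05. JAG1 is filled only without vehicle replicate 1, at -0.59, and the called directions of the other genes are the same in both fits.

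Among the repressors, HES1 and HEY1 rose while HES4 did not pass the test and HEY2 was all but unread. HES1 (ENSG00000114315, chromosome 3, 194136145 to 194138732), a helix-loop-helix repressor and a direct Notch target, measured 12.4, 12.3 and 12.99 CPM in the TGF-beta libraries. In vehicle it measured 3.53, 6.45 and 6.51 CPM. The lowest TGF-beta library was well above the highest vehicle library, and vehicle replicate 1 was the lowest of all. The means were 12.6 ± 0.370 CPM with TGF-beta and 5.50 ± 1.71 CPM in vehicle (SD, n = 3 each), a log2 fold change of 1.18 (SE 0.22, edgeR quasi-likelihood adjusted p = 0.0066). It was 0.95 without vehicle replicate 1 and stayed called without any 1 library.

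HEY1 (ENSG00000164683, chromosome 8, 79764010 to 79767863), a repressor of the hairy-related family that also answers to BMP signals, had 31, 46 and 36 reads in the TGF-beta libraries and 12, 21 and 7 in the vehicle libraries. These were 0.867, 1.01 and 0.928 CPM with TGF-beta and 0.286, 0.373 and 0.135 CPM in vehicle. The ranges did not overlap. HEY1 had a log2 fold change of 1.81 (SE 0.30, edgeR quasi-likelihood adjusted p = 0.000874) and ran from 1.48 without vehicle replicate 3 to 2.19 without vehicle replicate 2. HEY2, its close relative, had 1, 0 and 2 reads in the TGF-beta libraries and 1, 0 and 0 in the vehicle libraries, too few to be tested.

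HES4 (ENSG00000188290, chromosome 1, 998962 to 1000172), a relative of HES1 with no counterpart in mouse, measured 3.16, 4.43 and 5.13 CPM in the TGF-beta libraries and 4.53, 4.30 and 4.45 CPM in the vehicle libraries. The vehicle values sat inside the wider TGF-beta range. Its log2 fold change was -0.06 (SE 0.15, edgeR quasi-likelihood adjusted p = 0.799), and its sign turned without TGF-beta replicate 1 (0.11).

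The start-proximal sequences of HES1 and HES4 are shown because both hold the RBPJ core while only HES1 was called; HEYL, a further HEY repressor described below, is shown beside them. The sequences are the 250 bases before the gene's start from RefSeq on GRCh38.p14, written along the gene's strand. They cover chr3:194135898-194136147 (plus strand) for HES1, chr1:1000098-1000347 (minus strand) for HES4 and chr1:39639644-39639893 (minus strand) for HEYL. The RefSeq starts can differ from those of the counted genes. The HEYL sequence lies inside its counted gene (39624153 to 39639945), as the HES4 sequence does in part (998962 to 1000172). The HEY2 sequence, searched below but not shown, also lies inside its counted gene. Capitals mark TGGGAA, the core bound by RBPJ, or TTCCCA, the same core on the opposite strand.
HES1: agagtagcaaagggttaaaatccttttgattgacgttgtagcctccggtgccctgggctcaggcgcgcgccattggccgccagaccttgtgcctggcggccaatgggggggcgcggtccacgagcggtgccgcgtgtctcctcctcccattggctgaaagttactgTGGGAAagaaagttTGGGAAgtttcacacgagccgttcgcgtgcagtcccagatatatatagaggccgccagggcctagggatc
HES4: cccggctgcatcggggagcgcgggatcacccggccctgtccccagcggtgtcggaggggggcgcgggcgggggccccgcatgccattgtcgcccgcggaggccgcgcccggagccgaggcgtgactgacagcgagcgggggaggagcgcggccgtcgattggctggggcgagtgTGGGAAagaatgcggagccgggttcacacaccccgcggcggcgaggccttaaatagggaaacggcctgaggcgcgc
HEYL: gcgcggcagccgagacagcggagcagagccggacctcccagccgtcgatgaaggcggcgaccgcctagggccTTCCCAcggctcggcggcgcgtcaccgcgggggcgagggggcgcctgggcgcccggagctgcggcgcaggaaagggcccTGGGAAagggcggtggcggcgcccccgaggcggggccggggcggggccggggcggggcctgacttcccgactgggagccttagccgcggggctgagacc

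Counting back from the start, the HES1 sequence held 2 cores on the gene's strand, at -84 to -79 and at -70 to -65, with 8 bases between them. HES4 held 1 core, at -76 to -71, and HEYL held 2 on opposite strands, at -178 to -173 and at -99 to -94. Only exact matches to TGGGAA or TTCCCA were counted. The HES1 and HES4 sequences both also hold ttcacac after a marked core, a run of letters that was not searched for. The numbers of cores are thus not numbers of RBPJ sites. Of the 10 members, 8 were matched in the promoter table, and 3 of those 8 (HES1, HES4 and HEY2) held TGGGAA on either strand, where 20.8% of all 35116 promoters did. The longer form GTGGGAA, which contains TGGGAA, was in the same 3 and in 5.43% of all promoters. The N box CACNAG, the site HES proteins are known to bind, was found in HES1 and NOTCH3 among the members and in 32% of all promoters. The short SMAD element CAGAC was found in HES1 alone among the members and in 38% of all promoters. The SMAD palindrome GTCTAGAC was in 0.182% of all promoters and in none of the 8. Beyond the members, HES6 and NRARP, both called higher as described below, held 0 TGGGAA cores, as did HES2 and HES7, which were not called. HES5 held 2 cores and HES3 held 1, and both genes had too few reads to be tested. A match is a run of letters and not a measured binding site. A link between the cores and the changes in expression was not tested.

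Scaled to gene length as RPKM (reads scaled to gene length and library size), NOTCH2 was the most abundant of the 10 genes in every library, at 10.2 ± 0.229 RPKM with TGF-beta and 10.8 ± 0.622 RPKM in vehicle (SD, n = 3 each). It ranked above 86.8% of the 14518 tested protein-coding genes by its mean over all libraries. JAG1 followed in both conditions, at 4.09 ± 0.0718 RPKM with TGF-beta and 5.43 ± 1.91 RPKM in vehicle. The order then differed. With TGF-beta it ran JAG2, HES1, HES4, NOTCH1, NOTCH3, HEY1, DLL1 and HEY2, where the ranges of JAG2 and HES1 overlapped, as did those of HES4 and NOTCH1. In vehicle it ran NOTCH1, JAG2, HES4, HES1, NOTCH3, DLL1, HEY1 and HEY2, where the ranges of NOTCH1 and JAG2 overlapped. HES1 was thus above HES4 in each TGF-beta library, at 2.48 to 2.59 RPKM against 1.17 to 1.89 RPKM, and below it in each vehicle library, at 0.752 to 1.39 RPKM against 1.68 to 1.78 RPKM.

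**Figure D3:**
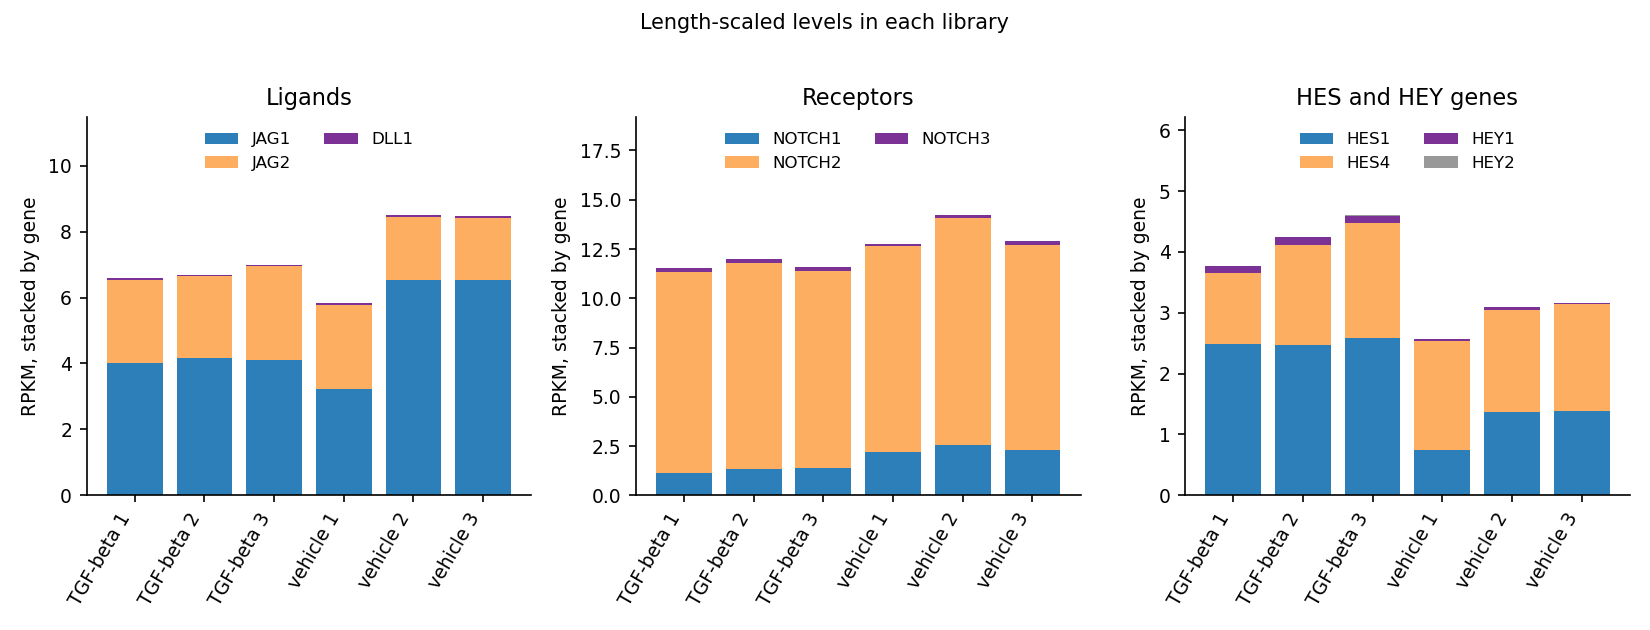
RPKM of the ligand, receptor and repressor genes in each library, stacked by gene, with the TGF-beta libraries on the left of each panel. NOTCH2 makes up most of the receptor bars, the HES1 portion is above the HES4 portion in the TGF-beta libraries only, and vehicle replicate 1 has the lowest ligand sum, at 5.85 RPKM.

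Within the receptor class, NOTCH2 made up 87.2 ± 1.001% of the summed RPKM with TGF-beta and 81.3 ± 0.701% in vehicle (SD, n = 3 each). NOTCH1 made up 10.9 ± 0.985% with TGF-beta and 17.7 ± 0.470% in vehicle, and NOTCH3 made up 1.86 ± 0.106% with TGF-beta and 1.01 ± 0.246% in vehicle. The NOTCH2 level was 8.95, 7.91 and 7.30 times the NOTCH1 level in the TGF-beta libraries and 4.79, 4.51 and 4.50 times in the vehicle libraries. The ranges of that ratio did not overlap. Among the ligands, the JAG1 level was 1.599, 1.67 and 1.45 times the JAG2 level in the TGF-beta libraries, against 1.27, 3.41 and 3.49 times in the vehicle libraries. Vehicle replicate 1 was below every TGF-beta library by this ratio, and the other vehicle libraries were above. HES1 made up 60.2 ± 5.09% of the summed RPKM of the 4 repressors with TGF-beta and 39.1 ± 8.58% in vehicle. These shares are given as descriptions, with no test.

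The departure of vehicle replicate 1 differed from gene to gene. In that library, relative to the mean of vehicle replicates 2 and 3, JAG1 was at 0.492 times, HES1 at 0.544 times and NOTCH3 at 0.622 times its CPM. JAG2 was at 1.34 times, NOTCH1 at 0.895 times, NOTCH2 at 0.952 times and HES4 at 1.03 times. Among 16576 tested genes averaging 1 CPM or more, 2.89% were at least 1.5-fold lower in vehicle replicate 1 and 0.784% were at or below the ratio of JAG1. With that library left out, 4 of the 9 members were called higher and 2 lower, where 50.4% of all genes tested were called, 24.9% higher and 25.5% lower. Among other Notch pathway genes, picked after their values were seen, CCND1 was at 121 CPM in vehicle replicate 1, while vehicle replicates 2 and 3 had 281 and 274 CPM, and LFNG was at 22.4 CPM, while they had 43.7 and 46.6 CPM. Neither was called with all 6 libraries, and both were called lower without vehicle replicate 1, at log2 fold changes of -0.74 for CCND1 and -0.14 for LFNG.

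Of the called members averaging 1 CPM or more, HES1 had the largest change. The 3 genes most like it among 12704 genes averaging 5 CPM or more, by Pearson's r of log2 CPM over the 6 libraries, were the cytokine gene IL11 (r = 0.999), the lipid kinase gene PIK3CD (0.999) and the receptor gene CD40 (0.999). IL11 averaged 63.9 ± 2.15 CPM with TGF-beta and 10.0 ± 5.99 CPM in vehicle, PIK3CD 27.7 ± 0.981 CPM with TGF-beta and 13.5 ± 3.26 CPM in vehicle, and CD40 29.2 ± 0.684 CPM with TGF-beta and 21.5 ± 2.69 CPM in vehicle (SD, n = 3 each). As 665 of the genes reached an r of 0.95, and the libraries fall into 2 conditions, these values are a description of likeness only.

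Beyond the 10 genes, 56 other genes of the pathway were listed by role, of which 51 could be tested. Of these, 18 were called higher, 9 lower and 24 were not called, with a median log2 fold change of 0.05; 19.7% of all genes were called higher and 20.4% lower. With library totals alone the split was 11 higher and 17 lower, where 2698 and 7281 of all 20992 genes were called higher and lower. By limma on log2(RPKM + 1) it was 10 and 10 of 43 tested, where 2419 and 4532 of all 15143 genes were called. Too few reads were found for the ligand gene DLK1, for HES3 and HES5, for the RBPJ relative RBPJL and for DTX1. The counts by role below stand beside the 19.7% of all genes called higher and the 20.4% called lower. No role held more than 9 tested genes.

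**Figure D4:**
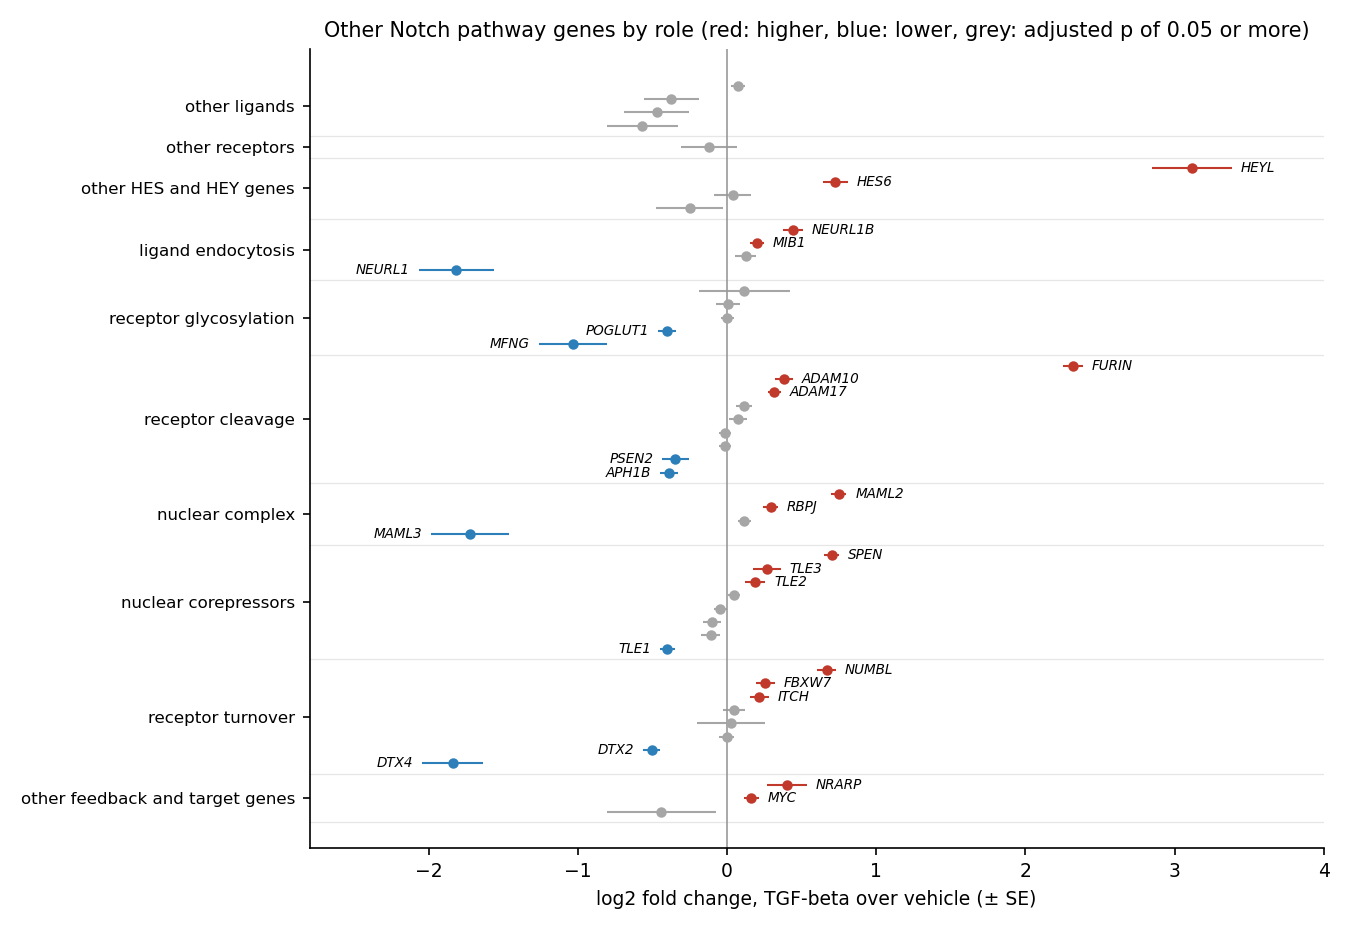
Log2 fold change of TGF-beta over vehicle with its SE for tested genes of the wider pathway, grouped by role; red marks genes called higher, blue those called lower and grey those not called, and only called genes are named. HEYL and FURIN lie farthest to the right, at 3.12 and 2.32, and DTX4 and NEURL1 farthest to the left, at -1.84 and -1.82.

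Of the other HES and HEY genes, 2 of 4 tested members rose and none fell. HEYL, a HEY-family repressor known from vascular smooth muscle, had 51, 67 and 58 reads in the TGF-beta libraries and 6, 6 and 13 in the vehicle libraries. It was called at 3.12 on the log2 scale (SE 0.27, edgeR quasi-likelihood adjusted p = 8.02e-06), with means of 1.47 ± 0.0358 CPM with TGF-beta and 0.167 ± 0.0748 CPM in vehicle. HES6, which is known to antagonise HES1, measured 27.2, 26.8 and 31.25 CPM in the TGF-beta libraries, against 16.3, 19.2 and 16.0 CPM in the vehicle libraries. Its log2 fold change was 0.73 (SE 0.09), and both genes stayed called under all alternatives that tested them. Of the 5 other ligand genes, 4 were tested and none was called with all 6 libraries, TMM scaling and the filter on low counts. DLL4 averaged 0.669 ± 0.142 CPM with TGF-beta and 0.972 ± 0.208 CPM in vehicle, and was called lower with library totals alone (log2 -0.69) and without vehicle replicate 1 (-0.72). DLL3 was called lower with library totals alone (-0.60) and without TGF-beta replicate 3 (-0.69), and DLK2 with no filter on low counts (-0.37) and without vehicle replicate 2 (-0.54). The endothelial receptor gene NOTCH4 was not called either, at 1.12 ± 0.236 CPM with TGF-beta and 1.23 ± 0.0804 CPM in vehicle.

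Enzymes that act on ligands and receptors moved both ways. FURIN, the protease that makes the first cut in newly made Notch receptors and also processes the TGF-beta precursor, measured 301, 315 and 335 CPM in the TGF-beta libraries, against 57.6, 65.8 and 66.9 CPM in the vehicle libraries. Its log2 fold change was 2.32 (SE 0.07, edgeR quasi-likelihood adjusted p = 2.92e-09). ADAM10, the metalloproteinase that cuts ligand-bound receptors, rose by 0.38 on the log2 scale, to 291 ± 8.40 CPM with TGF-beta, against 223 ± 18.5 CPM in vehicle. In all, 3 of 9 cleavage genes rose and 2 fell: APH1B (-0.39) and PSEN2 (-0.35), both of gamma-secretase; PSEN2 was not called without TGF-beta replicate 2 (edgeR quasi-likelihood adjusted p = 0.055). Of 5 glycosylation genes none rose and 2 fell: the fringe gene MFNG (-1.03, SE 0.23) and the O-glucosyltransferase gene POGLUT1 (-0.40, SE 0.06). MFNG was scarce, at 0.820 ± 0.272 CPM with TGF-beta and 1.72 ± 0.224 CPM in vehicle.

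The ubiquitin ligases that drive ligand endocytosis parted as well, with 2 of 4 higher and 1 lower. NEURL1B (0.44, SE 0.07) and MIB1 (0.20, SE 0.05) rose, and MIB1 was not called with library totals alone (0.08) or by limma. NEURL1 fell (-1.82, SE 0.25), at 14, 13 and 10 reads in the TGF-beta libraries against 45, 51 and 68 reads in the vehicle libraries. Among genes of receptor turnover, 3 of 8 rose and 2 fell. DTX4, a Deltex-type ubiquitin ligase, measured 15.2, 14.0 and 14.2 CPM in the TGF-beta libraries, against 37.6, 56.1 and 61.5 CPM in the vehicle libraries, a log2 fold change of -1.84 (SE 0.21, edgeR quasi-likelihood adjusted p = 0.00157). DTX2 fell too (-0.51, SE 0.06). NUMBL, a relative of the Notch inhibitor NUMB, rose (0.67, SE 0.06). FBXW7, which marks the intracellular receptor part for degradation, rose too (0.26, SE 0.06), but was not called with library totals alone (0.13) or by limma. ITCH, the remaining gene called higher (0.22, SE 0.06), was not called with library totals alone, by limma, or without any 1 library other than vehicle replicate 1.

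In the nucleus, RBPJ measured 106, 105 and 100.1 CPM in the TGF-beta libraries, against 79.8, 88.9 and 85.3 CPM in the vehicle libraries, a log2 fold change of 0.29 (SE 0.05, edgeR quasi-likelihood adjusted p = 0.00109). The Mastermind coactivator genes differed: MAML2 rose (0.75, SE 0.05), MAML1 measured 0.11 (SE 0.04) and was called only with RLE factors or the replicate block, and MAML3 fell (-1.72, SE 0.26). MAML3 was at 0.986 ± 0.0804 CPM with TGF-beta and 3.23 ± 1.06 CPM in vehicle, far below MAML2, whose TGF-beta mean was 30.6 CPM. Corepressor genes were called higher in 4 of 9 cases and lower in 1. Among those 4, the Groucho-type genes TLE2 (0.19, SE 0.07) and TLE3 (0.27, SE 0.09) were near the threshold and were not called with library totals alone, by limma, or without TGF-beta replicate 2 or 3 or vehicle replicate 3. TLE2 was also not called by DESeq2 or without vehicle replicate 2, nor TLE3 without TGF-beta replicate 1. SPEN, an RBPJ-binding corepressor, rose by 0.70 (SE 0.05) on the log2 scale, and the Groucho-type gene TLE1 fell by 0.40 (SE 0.05).

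Of the 3 further feedback and target genes, NRARP and MYC were called higher and CCND1 was not called. NRARP, a Notch target that dampens the pathway, measured 2.91, 3.395 and 4.02 CPM in the TGF-beta libraries, against 2.65, 2.65 and 2.54 CPM in the vehicle libraries. Its log2 fold change was 0.40 (SE 0.13, edgeR quasi-likelihood adjusted p = 0.0367). NRARP was not called without TGF-beta replicate 2 or 3 or vehicle replicate 2 or 3, nor by DESeq2 (adjusted p = 0.0797). The call was also lost with library totals alone (0.27), by limma and with the replicate block (edgeR quasi-likelihood adjusted p = 0.0534). MYC rose by 0.16 (SE 0.05) on the log2 scale. It was not called without TGF-beta replicate 1 or 3 or vehicle replicate 3, nor with library totals alone (0.04) or by limma.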

How the data were processed

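One deposited table of 64253 genes with 6 H69 libraries was used. The authors deposited whole-number counts per gene, not normalized, and RPKM values scaled to gene length and library size, per the file headers. Tools were bcl2fastq, STAR 2.6.1 and featureCounts of Subread with genome build hg38, per the submitters' processing notes; strand setting, handling of multi-mapped reads and annotation release are not given in the sources used here. Libraries were grouped by the treatment in the labels.

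For the counts, edgeR 4.0.16 under R 4.3.3 supplied filterByExpr (minimum count of 10), TMM scaling and its robust quasi-likelihood F test. TGF-beta was set against vehicle over 20992 genes, without a replicate block. Log2 fold changes come from the fit, and the SE is their size divided by the square root of F. The steps were tested on simulated counts. Alternatives were RLE factors, library totals alone, no filter, DESeq2 1.42.0, limma 3.58.1 on log2(RPKM + 1), or with 0.1 in place of 1, where genes averaged 0.5 RPKM or more, the replicate block, and each library left out. RPKM also served to set genes side by side. Depth sets counting precision, and low genes are given as reads.

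The members and lists were chosen with earlier results of these data known. Named were all members, for each role of the wider list up to 2 called genes with the largest rise and up to 2 with the largest fall, untested genes, and the 3 genes most like the called member with the largest change among those averaging 1 CPM or more. LFNG, CCND1, DLL3, DLL4, DLK2, NOTCH4, MAML1, TLE2, TLE3, ITCH and the overlapping transcripts were added after their values were seen. The response checks SMAD7 and PMEPA1 measured 2.48 and 2.87 on the log2 scale. Some genes that the rule names are not reported here.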

Additional observations from a re-analysis of the deposited data

How the results depend on the processing

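The calls of NOTCH1, NOTCH3, HES1 and HEY1 kept their direction and their side of the threshold under every alternative that tested them; NOTCH3 and HEY1 had too low an RPKM for the limma fits. All-gene calls higher were 2698 with library totals alone and 2419 and 2411 by limma on log2(RPKM + 1) and log2(RPKM + 0.1), against 4145; calls lower were 7281 with library totals, against 4278. Leaving out 1 library gave 3204 to 5429 higher and 3055 to 5556 lower. By both limma fits 1 of 6 tested members, HES1, was called higher, and 2 members were called lower without vehicle replicate 1, against 1 otherwise (range 1 to 2; 3 to 4 higher). For the wider pathway, calls higher were 11 with library totals and 10 and 10 by limma, against 18, and calls lower were 17 with library totals, against 9; leaving out 1 library gave 13 to 21 higher and 8 to 12 lower. The cause of these shifts was not tested, save that the limma fits tested fewer genes (15143).

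JAG1 ran from -0.59 to -0.16 on the log2 scale when 1 library was left out. JAG2 was not called with library totals alone (0.27), by limma (0.22 and 0.31) or with the replicate block (0.41, edgeR quasi-likelihood adjusted p = 0.0836), and ran from 0.32 to 0.55 with 1 library left out. NOTCH2 was -0.12 with library totals and -0.0714 and -0.0773 by limma, and -0.0205 to 0.0614 with 1 library left out. HES4 ran from -0.21 to 0.11. The deviations of same-numbered libraries from their condition means correlated at 0.0869, 0.0499 and 0.053 across genes. Every library but vehicle replicate 2 correlated best with its own number. Vehicle replicate 2 was at 0.0506 with TGF-beta replicate 3, against 0.0499 with TGF-beta replicate 2. The labels do not give the numbers as pairs, so the replicate block was kept as an alternative. With it, 4247 genes were called higher and 4330 lower, and no member's call changed other than that of JAG2. DLL1, HEY1 and HEY2 are limited by read number.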

Other observations

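Short and antisense transcripts annotated inside the member genes had few reads of their own. The antisense transcript RP11-103J8.1 overlaps JAG1 over 1180 bases and had 41, 54 and 48 reads in the TGF-beta libraries and 24, 102 and 113 reads in the vehicle libraries, so it too was lowest in vehicle replicate 1. It was not called (log2 -0.38, SE 0.44), nor was RP11-413M3.4 in NOTCH1, with 5, 11 and 6 reads in the TGF-beta libraries and 15, 15 and 21 reads in the vehicle libraries. The rows of 4 microRNA genes hosted by JAG1, JAG2, NOTCH1 and NOTCH3 held at most 6 reads in any library. Reads of host and embedded gene cannot be told apart without the strand setting of the counting.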
